A study of Homo sapiens with 6 samples.

Results

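The genes described here are 9 members of the S100 family, chosen by a list of symbols out of the 17211 genes with a value: S100A2, S100A4, S100A6, S100A10, S100A11, S100A13, S100A14, S100A16 and S100P. All 9 had a value. They were measured by RNA sequencing in CAOV2, a human ovarian cancer cell line that the labels also call primary cells, with 3 libraries from cells whose TAZ was silenced by siRNA (siTAZ) and 3 from cells that received a non-targeting siRNA (siNT). Both groups were seeded at 100000 cells a well, transfected with 100 pmol of siRNA in 6 µL of a lipid reagent for 2 days and collected on day 3, so both carry the effects of transfection. The siTAZ reagent is given by 1 catalogue number, and no second reagent or rescue is described. TAZ, encoded by WWTR1, is a coactivator of the Hippo pathway that works through TEAD transcription factors.

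S100 proteins are small calcium-binding proteins that usually work as dimers. Each subunit has a pair of EF hands, the helix-loop-helix motif that holds calcium, and calcium binding opens a surface that grips a partner protein such as an annexin or a myosin. Some family members are also released from cells and bind receptors, among them RAGE, encoded by AGER. Most S100 genes lie side by side on chromosome 1, whereas S100P lies on chromosome 4.

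Values are the deposited ones, that is reads divided by a size factor for the library. Reads summed over genes numbered 25478595 to 28928432 a library in siNT, and 28458503 to 34488196 in siTAZ. WWTR1 had 4359, 4217 and 4258 in siNT and 242, 277 and 280 in siTAZ, so the targeted transcript was lower in every library labelled siTAZ (log2 fold change -4.0, limma adjusted p = 8.0e-17). All 8 listed epithelial markers had a value, from KRT8, a simple epithelial keratin, at 35206 ± 1349 (SD, n = 3) in siNT to CLDN3 at 111 ± 16.1. With silencing 4 of them rose, KRT8, KRT19, EPCAM and CDH1, 3 fell, KRT7, KRT18 and CLDN4, and CLDN3 did not pass, and their summed level was 103144 to 112068 in siNT and 94883 to 103377 in siTAZ. Markers of Mullerian and ovarian tumour cells were scarce, with siNT means of 2.63 to 28.8 for the 4 of 6 that had a value: PAX8 and MUC16 did not pass, and FOLR1 and MSLN rose to 16.2 and 7.64, with a sum of 35.6 to 66.3 in siNT and 44.4 to 56.1 in siTAZ. Of markers of other cells, 0 of 3 of T cells, 0 of 4 of endothelium, 1 of 7 of keratinocytes and 3 of 6 of neutrophils and monocytes had a value. Among the last, LYZ rose from 20.9 ± 1.92 to 127 ± 18.8 and CD14 from 61.9 ± 8.08 to 115 ± 1.36, ITGAM did not pass and PTPRC had no value, with a sum of 92.1 to 99.4 in siNT and 238 to 281 in siTAZ. The keratinocyte marker with a value, KRT10, fell from 1039 to 660. The part of these markers in the S100 results was not tested. The labels call the replicates biological but name no separate cultures, so p-values reflect the spread of these libraries alone, part of which may be technical.

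Of the 9 S100 genes, 4 fell when TAZ was silenced, 0 rose and 5 did not pass the test. S100A4 fell most, 2.13-fold, followed by S100A2 (1.77-fold), S100A16 (1.72-fold) and S100A6 (1.48-fold). S100A10, S100A11, S100A13 and S100P were measured at 90.3% to 102.8% of their siNT means, and S100A14 was close to the floor of detection. A gene passed at an adjusted p under 0.05 in limma over all 17204 genes tested. By that rule 55.8% of all genes were called and 27.5% were called lower, so 4 of 9 called is no larger a share than the background, while 4 of 9 lower is above it. Among genes with a mean of at least 1000, 68.3% were called and 38.4% were called lower, against 4 of the 6 S100 genes as abundant. Genes called lower with a fall at least as large as that of S100A6 made up 9.77% of all genes tested. That cut-off is the smallest of the 4 falls, so the 4 genes meet it by construction and the share tests nothing. The members were also chosen with earlier results of these data known. The siNT and siTAZ libraries did not overlap for the same 4 of 9, against 61.4% of all genes tested. The median log2 fold change of the 9 genes was -0.14, and that of all genes tested was -0.00126.

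**Figure D1:**
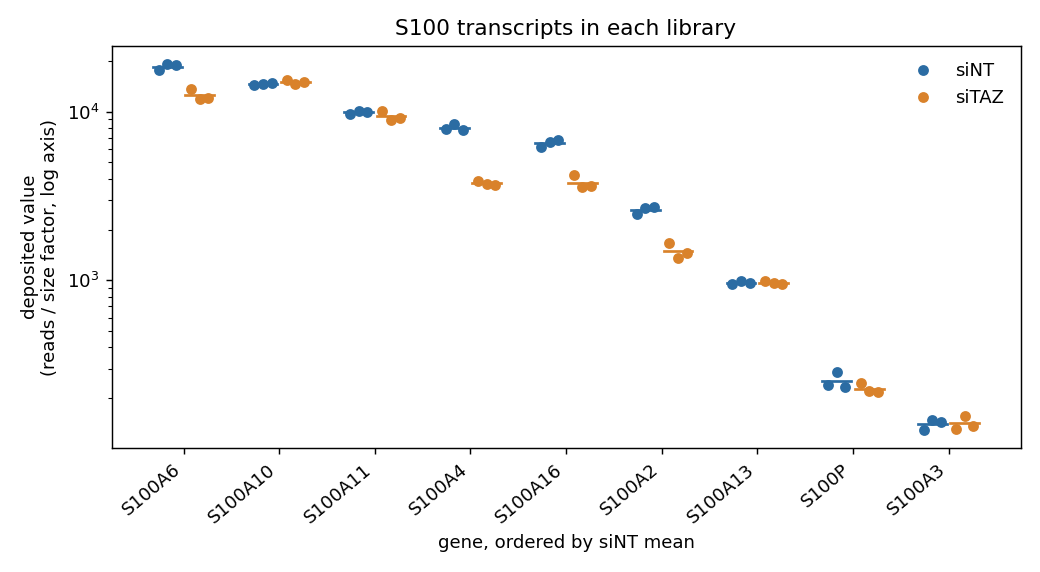
Deposited value (reads over size factor, logarithmic axis) of 8 S100 members and of S100A3 in each library; points are libraries and short lines are group means of 3. The siNT and siTAZ points part without overlap for S100A6, S100A4, S100A16 and S100A2 and overlap for the other genes shown; S100A14 is left out because 1 of its values is 0.

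S100A4 encodes a protein that binds non-muscle myosin heavy chains and is known for its part in cell motility. Its values were 7842, 8466 and 7758 in siNT and 3889, 3708 and 3683 in siTAZ. All siTAZ libraries lay well below all siNT libraries, and the replicates varied little (8022 ± 387 against 3760 ± 113, SD, n = 3). The log2 fold change was -1.09 with a 95% interval of -1.19 to -0.99 (SE 0.05, limma adjusted p = 1.2e-11). S100A4 is also widely used as a fibroblast marker. Of 5 listed fibroblast markers DCN had no value, and the summed level of the other 4 was 4012 to 4662 in siNT and 3972 to 4603 in siTAZ, most of it LUM. Taken singly, COL1A2 fell from 12.6 ± 2.69 to 1.30 ± 1.14, PDGFRB rose from 10.1 ± 4.70 to 34.2 ± 4.97, and LUM and COL1A1 did not pass. The part of these markers in the fall of S100A4 was not tested. In the annotation S100A4 overlaps S100A3 on the same strand, so reads from the shared stretch could not be told apart by position.

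S100A6, or calcyclin, binds annexins and the ubiquitin ligase adaptor CACYBP. It had 17540, 19090 and 18803 in siNT and 13668, 11895 and 11992 in siTAZ. The groups did not overlap, and the fall was the smallest of the 4 (log2 fold change -0.56, SE 0.06, limma adjusted p = 1.9e-07). With 50171 and 40175 reads summed over the siNT and siTAZ libraries, it was also the most deeply counted of the 4. An antisense gene is annotated across S100A6; whether reads were counted by strand is not stated, so the pair cannot be told apart.

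S100A2 is best known from epithelial cells, where its product is mainly nuclear. It had 2473, 2682 and 2725 in siNT and 1658, 1348 and 1452 in siTAZ. The highest siTAZ library was far below the lowest siNT library (log2 fold change -0.83, SE 0.07, limma adjusted p = 2.1e-08). S100A16 encodes a broadly expressed member with one calcium-binding hand that is weak or inactive. It had 6180, 6643 and 6808 in siNT and 4191, 3569 and 3622 in siTAZ. Again no siTAZ library reached the siNT range (log2 fold change -0.79, SE 0.06, limma adjusted p = 8.1e-09). The 4 calls held in each of the 18 alternative settings run, which include leaving out each library.

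One library had a place of its own within its group. Among the 8 members with a mean of at least 100, siTAZ replicate 1 was the highest of the siTAZ libraries for all 8, where it was the highest for 43.3% of the 11466 genes, with or without a symbol, with such a mean. For the 4 genes that fell, it was thus the siTAZ library nearest to siNT. Within siNT, replicate 1 was the lowest library for 6 of the 8, against 42.3% of those genes. Without siTAZ replicate 1 the log2 fold changes of S100A4, S100A2, S100A16 and S100A6 were -1.12, -0.91, -0.86 and -0.63, and what sets that library apart was not tested.

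The stretches just before the annotated start sites show what regulatory letters lie beside these genes. Below are the 250 bases upstream of a start of each gene that fell and, as a contrast, of S100A10, which is abundant and did not pass. S100A2 and S100A16 each have another start, and the start printed is the one with a marked match upstream of it. They are RefSeq sequences of GRCh38.p14, on the minus strand and written 5′ to 3′: S100A4 at chr1:153545807-153546056, S100A2 at chr1:153565845-153566094, S100A16 at chr1:153613138-153613387, S100A6 at chr1:153535992-153536241 and S100A10 at chr1:151993860-151994109. Capitals mark a TATA box (TATAAA) in S100A4, an AP-1 site (TGANTCA) in S100A2 and a TEAD site (GGAATG) in S100A16. A further motif searched, CACCTG, is left in lower case. It lies 164 bases before the start in S100A4, and on the other strand 178 and 191 bases before the start in S100A16.
S100A4: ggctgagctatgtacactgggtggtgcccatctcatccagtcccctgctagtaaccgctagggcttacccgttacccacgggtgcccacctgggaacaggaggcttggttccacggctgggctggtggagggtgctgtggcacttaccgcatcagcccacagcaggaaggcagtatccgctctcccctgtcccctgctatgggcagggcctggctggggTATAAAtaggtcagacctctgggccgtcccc
S100A2: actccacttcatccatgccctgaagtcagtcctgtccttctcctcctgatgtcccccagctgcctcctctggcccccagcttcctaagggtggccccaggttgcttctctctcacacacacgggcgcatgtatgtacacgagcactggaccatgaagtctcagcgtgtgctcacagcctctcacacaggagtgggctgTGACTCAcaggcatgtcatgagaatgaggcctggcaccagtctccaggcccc
S100A16: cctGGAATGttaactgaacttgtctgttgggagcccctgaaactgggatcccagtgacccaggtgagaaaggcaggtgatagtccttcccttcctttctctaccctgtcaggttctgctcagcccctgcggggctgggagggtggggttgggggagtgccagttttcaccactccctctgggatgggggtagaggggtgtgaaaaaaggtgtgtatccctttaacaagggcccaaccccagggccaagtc
S100A6: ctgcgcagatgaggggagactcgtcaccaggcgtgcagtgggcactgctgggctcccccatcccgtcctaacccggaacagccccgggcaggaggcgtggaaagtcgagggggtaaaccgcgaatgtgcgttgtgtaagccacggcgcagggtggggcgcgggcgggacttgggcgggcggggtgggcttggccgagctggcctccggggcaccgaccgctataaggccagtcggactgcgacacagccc
S100A10: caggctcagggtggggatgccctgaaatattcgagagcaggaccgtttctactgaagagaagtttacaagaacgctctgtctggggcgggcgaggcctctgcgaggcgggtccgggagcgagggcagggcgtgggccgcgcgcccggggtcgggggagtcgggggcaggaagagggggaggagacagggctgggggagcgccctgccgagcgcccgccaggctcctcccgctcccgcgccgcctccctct
The search covered both strands of 300 bases, 250 before to 50 after a start, in 13 windows of the 9 members. GGAATG, the core bound by TEAD factors, was in 2 windows, both of S100A16, at 247 bases before one start and 16 bases after the other, and in 4928 of all 35116 windows. TGANTCA was in 1 window, 52 bases before a start of S100A2, and in 7.71% of all windows. It was also 225 bases before the start of S100A3, which is no member. TATAAA began 31 bases before the start of S100A4, 29 before one of S100A13 and 28 before that of S100P, and was in 11.5% of all windows. CACCTG, an E-box that SNAIL and ZEB repressors bind, was in 6 windows of 5 members and in 20.6% of all windows. No match overlapped another. S100A6, S100A10 and S100A11 had none of these 4 motifs in the windows searched, which says nothing of sites elsewhere or in other letters.

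S100A10 and S100A11 are the partners of annexins. S100A10, or p11, binds annexin A2 in a tetramer at the plasma membrane and, unlike its relatives, has lost calcium binding. Its values were 14430, 14521 and 14733 in siNT and 15308, 14660 and 14955 in siTAZ. The ranges overlapped, and the 95% interval of the fold change was 0.966 to 1.09 (log2 fold change 0.04, limma adjusted p = 0.44). Under total count scaling the log2 fold change was 0.0935 (limma adjusted p = 0.053), and without siTAZ replicate 1 it was 0.0242 (range of adjusted p over the 18 alternatives 0.053 to 1.0). S100A11, which binds annexin A1 and takes part in membrane repair, had 9616, 10031 and 10008 in siNT and 10135, 8865 and 9116 in siTAZ. The spread among its siTAZ libraries, 9372 ± 672, spanned the siNT values. Its log2 fold change was -0.08 with a 95% interval of -0.19 to 0.03 (limma adjusted p = 0.20). Without siTAZ replicate 1 it was -0.14 and passed (limma adjusted p = 0.013), so this gene's call rests on 1 library. S100A11 has processed copies elsewhere in the genome and an antisense gene across it, which makes its count uncertain.

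S100A13, needed for the release of leaderless proteins such as FGF1 and interleukin 1 alpha, had the log2 fold change nearest to 0 of the 9 members. Its values were 954, 989 and 964 in siNT and 994, 959 and 951 in siTAZ. The group means, 969 ± 17.9 and 968 ± 23.1, were far closer to each other than the replicates were (log2 fold change -0.00136, 95% interval -0.12 to 0.12, limma adjusted p = 0.99). In the annotation S100A13 overlaps S100A1 on the opposite strand, and S100A1 had no value. It also overlaps AL162258.1, a processed transcript, on the same strand, so reads from a shared stretch could not be told apart by position.

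S100P, first found in placenta and a ligand of RAGE, binds the membrane linker ezrin. It had 239, 288 and 232 in siNT and 246, 220 and 218 in siTAZ. The ranges overlapped, and the 95% interval of the log2 fold change, -0.36 to 0.07, is wider than for the abundant members (log2 fold change -0.14, limma adjusted p = 0.25). It was -0.0888 under total count scaling and -0.0460 without siNT replicate 2, which holds the highest value, and did not pass in any of the 18 alternatives. S100A14, a member of many epithelia, had 0, 4 and 5 reads in siNT and 3, 5 and 5 reads in siTAZ. The ratio of siTAZ to siNT was 1.22 with an exact 95% interval of 0.482 to 3.23 that covers counting error only, so no difference was detectable at this depth.

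**Figure D2:**
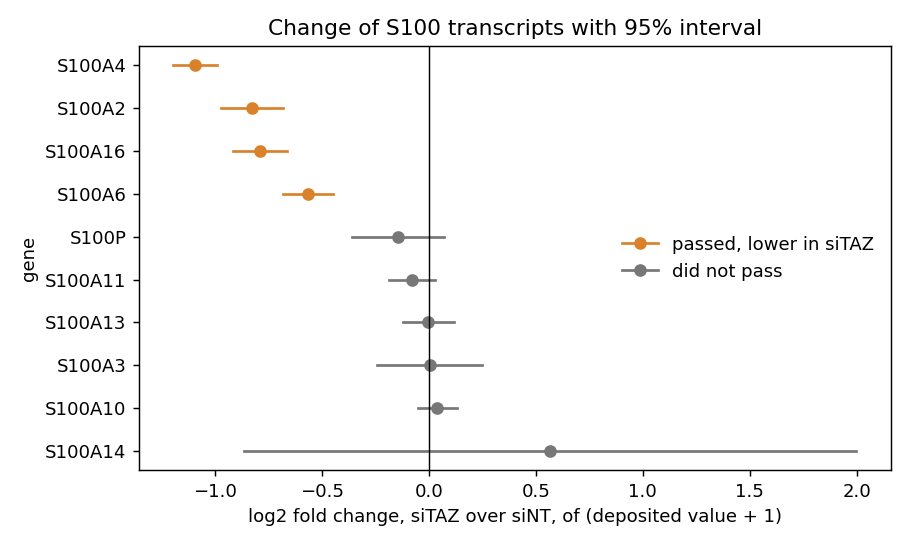
Log2 fold change of siTAZ over siNT, on the scale of log2(deposited value + 1), for the 9 S100 members and S100A3; points are limma estimates from 3 libraries a group and bars are 95% intervals. S100A4, S100A2, S100A16 and S100A6 lie below 0 with their whole interval, and the others span 0, S100A14 with by far the widest bar.

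Of 19 other S100 and fused-type S100 genes on a list fixed for this comparison, only S100A3 had a value, and the other 18 were not analysed here. These include S100A7, S100A8 and S100A9, known from inflamed skin and neutrophils, and the fused-type genes FLG and HRNR of the horny layer. S100A3, a cysteine-rich protein of hair cuticle, had 130, 149 and 145 in siNT and 131, 158 and 136 in siTAZ. The groups overlapped fully, and its log2 fold change was 0.00 with a 95% interval of -0.24 to 0.25 (limma adjusted p = 0.98).

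In levels per kilobase of principal transcript, which allow genes to be compared, S100A6 led in siNT at 27456 ± 1225 (SD, n = 3), ahead of S100A11 at 16641 ± 393, S100A4 at 13370 ± 644 and S100A10 at 12114 ± 129. S100A16 at 5710 ± 284, S100A2 at 2632 ± 135 and S100A13 at 1413 ± 26 followed, and S100P at 198 ± 23.7 lay just above S100A3 at 165 ± 11.6. No neighbours in this order overlapped between libraries in siNT. In siTAZ the order was the same except that S100A10, at 12458 ± 270, now stood above S100A4, at 6267 ± 188, and that S100P overlapped with S100A3, and S100A2 with S100A13. With the union of all exons as the length, S100A10 already stood above S100A4 in siNT, so that exchange rests on the choice of length. By that length S100A11 also stood above S100A6, and S100A13 above S100A2, in siTAZ. With the shortest principal transcript, S100A10 came to 23639 per kilobase in siNT, second after S100A6 at 27786, and to 24309 in siTAZ, above S100A6 at 18825, and S100A3 stood above S100P. The order of these levels thus moves with the transcript length used.

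The 9 genes together made up between 0.196% and 0.206% of the reads of a siNT library, and between 0.154% and 0.169% of those of a siTAZ library. Their summed value went from 61342 ± 1822 to 47106 ± 2616, with no overlap (exact two-sided permutation test, p = 0.10, the smallest that 3 against 3 allows). The makeup of this pool differed too. S100A6 supplied 29.6% to 30.4% of the S100 reads in siNT and 26.1% to 27.3% in siTAZ, and S100A4 supplied 12.5% to 13.5% and 7.76% to 8.20%. S100A10 went from 23.2% to 24.3% of the pool in siNT to 30.6% to 32.5% in siTAZ, becoming its most counted member without a call of its own.

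Ratios between members within a library do not depend on the scaling of libraries. The 28 pairs among the 8 members with a mean of at least 100 were compared, where an exact permutation test cannot go below p = 0.10 (0.12 adjusted over the 28 pairs), so ratios are given as values. The ratio of S100A4 to S100A6 was 0.447, 0.443 and 0.413 in siNT and 0.285, 0.312 and 0.307 in siTAZ, so every siTAZ library held less S100A4 per S100A6 than every siNT library. The ratio of S100A2 to S100A16 was 0.400, 0.404 and 0.400 in siNT and 0.396, 0.378 and 0.401 in siTAZ, and here the groups overlapped. Of the 28 pairs, 23 did not overlap between the groups, among them 5 of the 6 pairs of genes that fell. The same share was not computed for pairs of other genes, and 61.4% of single genes tested did not overlap. A pair of a gene that fell with one that did not pass largely restates the call. Small differences count too, such as that of S100A13 to S100A10, at -0.0415 (log2).

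The genes that fell lie in one stretch of chromosome 1. In RefSeq's order of protein-coding genes (GRCh38.p14), the run from S100A9 to S100A1 holds 14 genes, all of the S100 family, of which 7 had a value. From S100A6 the order is S100A5, S100A4, S100A3, S100A2, S100A16, S100A14 and S100A13. S100A3 thus lies between S100A4 and S100A2, which both fell, without passing itself, and S100A13 lies at the far end at an even level. S100A10 and S100A11 sit apart, before this run. Of the 5 measured genes before the run, S100A10 and S100A11 among them, 0 were called. Genes with no value were skipped in choosing flanking genes, so these need not be close neighbours. The upstream bases of S100A11 begin at position 152037005, far from those of S100A6 at 153535992. Of the 5 after the run, ILF2, an RNA-binding protein gene, fell 1.14-fold and INTS3, a subunit of the Integrator complex, fell 1.19-fold. Both falls were smaller than those of the S100 genes that fell, and CHTOP, SNAPIN and NPR1 did not pass. Over all genes tested, 55.8% were called and 27.5% were called lower. Among the flanking genes, CRCT1 (0.403 in siNT and 2.10 in siTAZ), NPR1 (7.42 and 7.92) and C2CD4D (23.1 and 23.5) were scarce, which limits their calls.

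**Figure D3:**
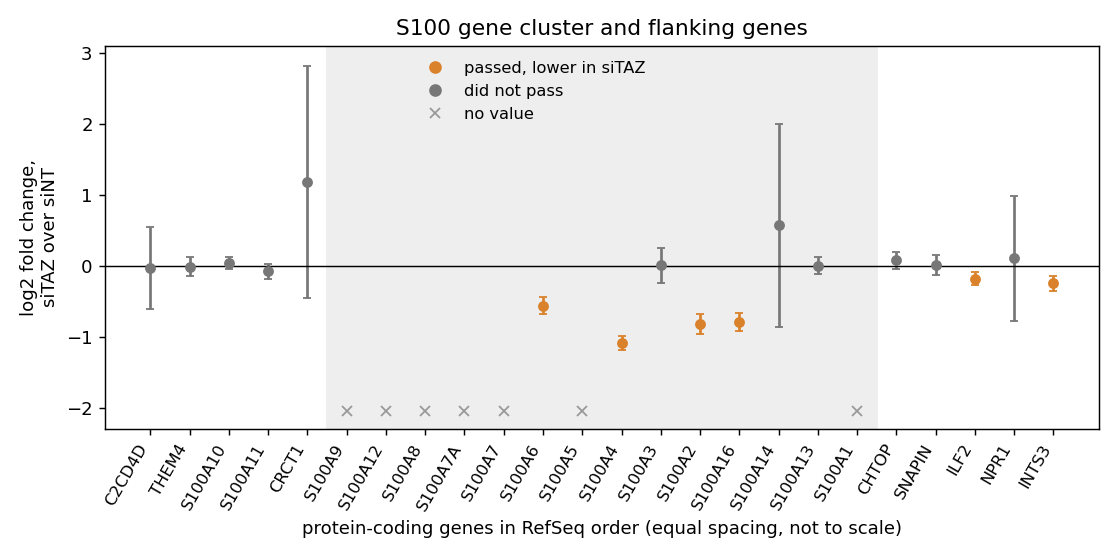
Log2 fold change of siTAZ over siNT with 95% interval (limma, 3 libraries a group) for the S100 genes of chromosome 1 and the 5 measured genes on either side, in RefSeq order with equal spacing; the shaded run is from S100A9 to S100A1 and crosses mark genes with no value. S100A6, S100A4, S100A2 and S100A16 lie at -0.56 to -1.09, with S100A3 between them at 0.00, and INTS3 at -0.25 is the lowest flanking gene.

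The partners of S100 proteins were taken from a list of 33 binding partners, receptors and targets, of which 29 had a value. Of these, 13 fell, 7 rose and 9 did not pass, against 27.5% lower and 28.3% higher over all genes tested, and their median log2 fold change was -0.12. All 13 that fell had a mean of at least 1000. Among all genes with such a mean, 68.3% were called and 38.4% were called lower. Annexin A2 (ANXA2), the partner of S100A10, fell 1.48-fold, from 31378 ± 484 to 21239 ± 466 (SD, n = 3, limma adjusted p = 9.5e-09). Annexin A1 (ANXA1), the partner of S100A11, fell 1.30-fold, from 13665 ± 791 to 10501 ± 477. The other annexins on the list differed: ANXA5, named after its values were seen, did not pass, at 19328 ± 743 and 19784 ± 290, ANXA6 rose 1.57-fold, from 1070 ± 38 to 1683 ± 67.6, and ANXA11 rose 1.25-fold, from 7787 ± 364 to 9704 ± 278. The largest rises on the list were in SYT1, a calcium sensor of vesicle release that binds S100A13, 1.61-fold, and in ANXA6 and ASIC1, an acid-gated channel that S100A10 brings to the membrane, both 1.57-fold. Of the partners that passed, the largest fall was in CAPZA1, 1.499-fold, followed by ANXA2 and by TPM1, 1.45-fold. CAPZA1 and TPM1 were named after their values were seen.

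Among the partners of the genes that fell, MYH9, the myosin heavy chain bound by S100A4, fell to 83.0% of its siNT mean, from 43933 ± 2779 to 36481 ± 1248. CACYBP, the partner of S100A6, fell 1.18-fold, from 2600 ± 90.3 to 2199 ± 42.8. Of the partners of members that did not pass, AHNAK also fell 1.18-fold, from 34890 ± 1129 to 29485 ± 1338. AHNAK is a giant scaffold bound by S100A10 with annexin A2. EZR, ezrin, was at 12496 ± 148 and 11531 ± 384 and passed narrowly (limma adjusted p = 0.032), a call lost in 8 of 18 alternatives, among them total count scaling and leaving out replicate 2 or 3 of either group (range of adjusted p 0.0084 to 1.0). IQGAP1, a scaffold bound by S100P, did not pass, at 16395 ± 565 and 15550 ± 751. AGER, the receptor RAGE, was low and did not pass, at 142 ± 15.8 and 117 ± 9.82 (limma adjusted p = 0.069). Without siNT replicate 1 AGER passed, with a log2 fold change of -0.35 (limma adjusted p = 0.034).

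**Figure D4:**
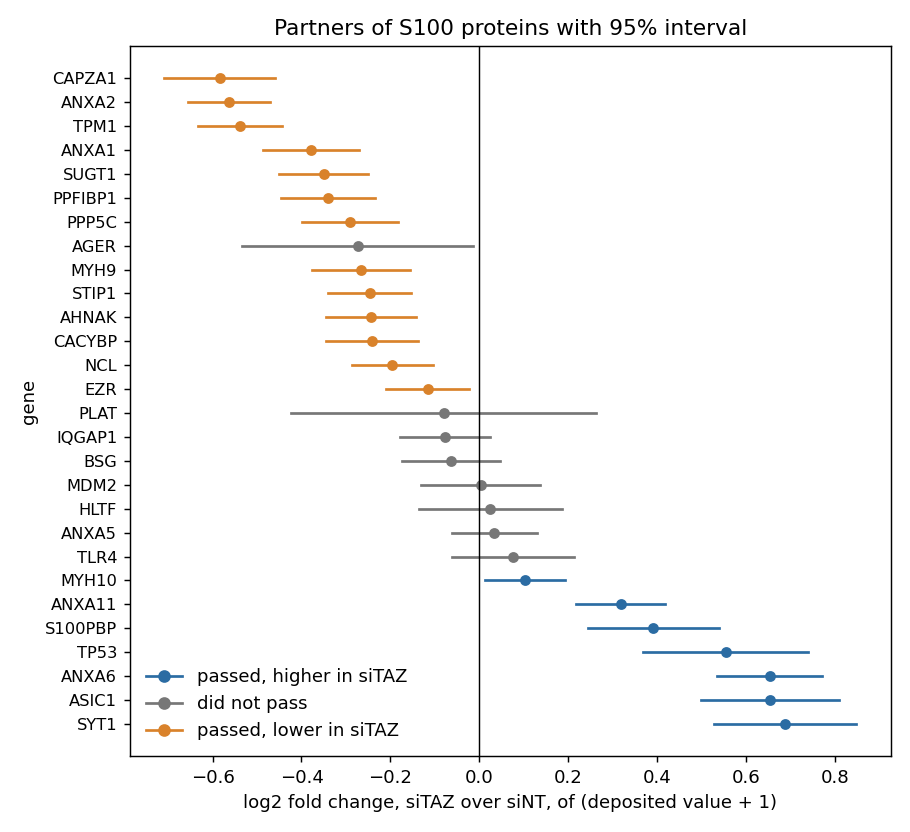
Log2 fold change of siTAZ over siNT with 95% interval (limma, 3 libraries a group) for the 28 listed partners of S100 proteins with a mean of at least 50. CAPZA1 at -0.58 is the lowest, followed by ANXA2 at -0.56 and TPM1 at -0.54, with ANXA1 at -0.38. ANXA6 at 0.65, ASIC1 at 0.66 and SYT1 at 0.69 have the highest values.

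Ratios of a member to its partner were compared within each library for 5 pairs. S100A10 to ANXA2 was 0.455, 0.471 and 0.467 in siNT and 0.708, 0.708 and 0.699 in siTAZ, a ratio 1.52-fold higher with ANXA2 lower and S100A10 not called. S100A11 to ANXA1 was 0.660, 0.766 and 0.750 in siNT and 1.01, 0.845 and 0.830 in siTAZ. Both ratios were thus higher in every siTAZ library. S100A4 to MYH9 moved the other way, from 0.192, 0.188 and 0.168 to 0.103, 0.103 and 0.104, as did S100A6 to CACYBP, from 6.49, 7.46 and 7.41 to 6.29, 5.47 and 5.33. S100P to EZR overlapped between the groups, at 0.0194, 0.0228 and 0.0185 and 0.0206, 0.0197 and 0.0191. The exact two-sided permutation p was 0.10 for the first 4 pairs, the smallest possible (0.13 adjusted over the 5 pairs), and 0.90 for the last.

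By Pearson's r of log2(value + 1) over the 6 libraries, the genes most like S100A4 among 11250 others that have a symbol and a mean of at least 100 were CD40, a receptor of the TNF family (r = 0.9997), PTMA, the small nuclear protein prothymosin alpha (r = 0.9996), and LINC00460, a long noncoding RNA (r = 0.9996). All 3 were lower in siTAZ, with CD40 going from 200.4 ± 4.31 to 126 ± 2.60. Of the members, S100A16 was the nearest to S100A4 (r = 0.983) and ranked 715, followed by S100A2 (r = 0.980) and S100A6 (r = 0.978). The genes most like S100A10 were FAH, an enzyme of tyrosine breakdown (r = 0.991), CDC42SE1, an effector of CDC42 (r = 0.989), and PLEK2, a pleckstrin family gene (r = 0.987). These r values are descriptions over 6 libraries and take in the step between the groups.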

How the data were processed

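RNA sequencing of 6 libraries, 3 siNT and 3 siTAZ, was analysed from 1 table. The submitters' processing notes name FastQC, HISAT2, HTSeq and DESeq2 and the build hg19; their versions, the annotation, strandedness of counting and gene filter are unstated. The deposited values are a signal, reads divided by the authors' size factor for each library, not raw counts: 100% were whole multiples of 1 read within 0.001 of a read, which gave back whole reads. Genes were named from a table of Ensembl identifiers (16662 of 17211) or GENCODE release 29 (81), and 468 stayed unnamed. GENCODE and RefSeq are of GRCh38, so they served only for names, gene order, overlaps, transcript length and the printed promoters. All 9 members matched RefSeq promoters.

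The main test was limma 3.58.1 (R 4.3.3, intensity trend) on log2(value + 1), run on every gene whose mean reached 1 (17204), with group as the only term and Benjamini-Hochberg adjustment. Folds are of group means. The log2 scale with this pseudocount can misstate changes of low genes in either direction. S100A14, for example, had a log2 fold change of 0.57 against a fold of means of 1.16. Alternatives were other pseudocounts, filters and scalings, edgeR 4.0.16, DESeq2 1.42.0 and voom on the recovered reads, a replicate block and leaving out each library. The methods were run on simulated counts with far fewer changed genes than were called here and a fixed dispersion. That run does not show how they perform on these data. Single values were compared by exact permutation in scipy 1.17.1, and figures drawn with matplotlib 3.10.9. The main test did not pair libraries by replicate number. The labels do not say whether same-numbered libraries share a culture or batch, and 3 libraries a group are too few to decide it.

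Named genes are the members, WWTR1, other S100 genes with a value, partners changed at least 1.5-fold, 9 partners set by name, and the 3 genes most like 2 members; the flanking genes follow from gene order, an analysis chosen after the values were seen, as were the promoter motifs, ratios and library order. The partners ANXA5, CAPZA1 and TPM1 were named after their values were seen. The members and lists were chosen with earlier results of these data known.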

Additional observations from a re-analysis of the deposited data

How the results depend on the processing

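The falls of S100A4, S100A2, S100A16 and S100A6 and of WWTR1 kept their direction and passed in all 18 alternatives: log2 fold changes ran over -1.12 to -1.04 for S100A4, -0.91 to -0.76 for S100A2, -0.86 to -0.74 for S100A16 and -0.63 to -0.51 for S100A6. The number of S100 genes called lower was 4, or 5 without siTAZ replicate 1, where S100A11 passed, and 0 were called higher throughout. Leaving out 1 library each gave log2 fold changes of -0.14 to -0.0401 for S100A11, -0.30 to 1.11 for S100A14, -0.0207 to 0.0133 for S100A13 and -0.0756 to 0.0585 for S100A3; none of the last 3 passed. S100A13, at -0.00136, was positive under total count scaling (0.0519), TMM scaling (0.00455), edgeR (0.00409) and voom (0.00335). Limma's treat test against a fold of 1.2 called 4417 genes in all, with 3 partners lower and 4 higher. The replicate block, tested because titles share numbers, left S100A4 at -1.09 (limma adjusted p = 2.1e-13) and the 4 S100 calls in place, and moved no count of calls by over 1.5 times; deviations of same-numbered libraries correlated at -0.14, -0.08 and 0.02. Total count scaling shifted the median gene by 0.05 (log2). Depth limits S100A14 most, and S100P and S100A3 next.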
